A study of Mus musculus with 12 samples.

Results

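The genes described here are 9 lysosomal cathepsins, Ctsa, Ctsb, Ctsc, Ctsd, Ctsh, Ctsk, Ctsl, Ctss and Ctsz, and Cst3, which encodes the cystatin that inhibits the cysteine cathepsins. They were chosen by gene name, with earlier results of these data known. They are 10 of 40760 genes in the count table, and all 10 were among the 17418 genes with enough counts to be tested. The study asked how loss of Pear1, a cell-surface receptor, alters bleomycin-induced pulmonary fibrosis, and measured RNA in cells sorted from lungs of male mice for the mesenchymal protein Cd140a, the product of Pdgfra. There were 12 libraries, 3 in each of 4 groups, WT or Pear1-/- mice given vehicle and WT or Pear1-/- mice given bleo. Bleo is bleomycin, a drug that injures the lung and is used in mice as a model of fibrosis, here given as an aerosol into the trachea. Per the study's methods the mice were adults on a C57BL/6 background, and the Pear1-/- allele was a knockout-first tm1a allele present in every cell of the body, so that Pear1 was not deleted in the sorted cells alone. The methods give an age range, a pair of bleo doses and a day of analysis for the mice of the study in general. Neither they nor the labels tie a dose, a time after bleo or a number of mice to these libraries. Because nothing says that the 3 libraries of a group came from separate mice, the p-values below measure only the spread between these samples.

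Cathepsins are proteases of the lysosome, made as inactive precursors, carried there by the mannose 6-phosphate route and activated as the compartment is acidified. Most are cysteine proteases, Ctsd is an aspartic protease and Ctsa is a serine carboxypeptidase. Macrophages and other antigen-presenting cells are rich in them, and fibroblasts use cathepsin K to break down collagen. Cystatin C, the product of Cst3, is secreted by most cells and blocks cysteine cathepsins that reach the outside.

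In the mouse genome GRCm38, Ctsk (ENSMUSG00000028111) lies on chromosome 3 from 95499256 to 95509362 and Ctss (ENSMUSG00000038642) on the same chromosome and strand from 95526786 to 95556403. The pair is 17423 bases apart with 0 annotated genes between them. Ctsc (chromosome 7, from 88278085 to 88310888) and Ctsd (chromosome 7, from 142375911 to 142388038) share a chromosome but are not neighbours. Ctsa (from 164832873 to 164841032), Ctsz (from 174427493 to 174439039) and Cst3 (from 148871722 to 148875692) are on chromosome 2. Ctsb lies on chromosome 14 (from 63122462 to 63145923), Ctsh on chromosome 9 (from 90054152 to 90076089) and Ctsl on chromosome 13 (from 64359337 to 64370890).

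The 250 bases before the RefSeq start are shown for Ctss and Ctsk, neighbours on the chromosome whose responses differed, and for Ctsd, the member with the most copies of the E-box core that the lysosomal regulator Tfeb is known to bind. The sequences are from RefSeq on GRCm38.p6, printed 5′ to 3′ on the strand of the gene, and positions are counted back from the start, -1 being the last base shown. Capitals mark GAAANNGAAA, the core of an interferon response element, in Ctss (chr3:95526536-95526785, plus strand), GAGGAAG, the core bound by the myeloid factor PU.1, on either strand in Ctsk (chr3:95498960-95499209, plus strand) and CACGTG in Ctsd (chr7:142387828-142388077, minus strand).
Ctss: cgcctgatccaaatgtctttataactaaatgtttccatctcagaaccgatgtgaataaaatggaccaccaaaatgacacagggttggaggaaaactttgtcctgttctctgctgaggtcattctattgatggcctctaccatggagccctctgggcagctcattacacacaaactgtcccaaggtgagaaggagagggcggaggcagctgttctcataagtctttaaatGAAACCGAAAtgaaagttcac
Ctsk: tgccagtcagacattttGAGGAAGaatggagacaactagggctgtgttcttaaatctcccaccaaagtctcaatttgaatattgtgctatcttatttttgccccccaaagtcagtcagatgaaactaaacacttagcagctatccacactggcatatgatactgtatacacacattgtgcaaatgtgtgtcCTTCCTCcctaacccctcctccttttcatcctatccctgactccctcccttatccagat
Ctsd: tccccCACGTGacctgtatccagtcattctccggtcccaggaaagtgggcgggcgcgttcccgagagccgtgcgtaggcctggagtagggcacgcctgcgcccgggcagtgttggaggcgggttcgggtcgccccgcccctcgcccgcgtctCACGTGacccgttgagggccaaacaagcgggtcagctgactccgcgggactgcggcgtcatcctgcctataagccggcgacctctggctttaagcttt
Among the 8 members with a RefSeq promoter entry (Ctsb and Ctsh had none), GAAANNGAAA was found in Ctss at -21, and it was present on either strand in 2.97% of 32817 mouse promoter entries cut to the same length. CACGTG was found in Ctsd at -245 and -98, in Ctsl at -236 and in Ctsa at -12 of the second of its start sites, against 6.02% of all entries. GAGGAAG was found in Ctsk at -233 and, on the opposite strand, at -59, and in Ctsc at -197 and -150, both on the opposite strand, against 10.6% of all entries. The 3 motifs did not overlap in these windows. RefSeq starts can differ from the gene ends given above, which are those of GENCODE. The windows of Ctsl and of the second start site of Ctsa lie wholly inside their GENCODE genes, and those of Ctsd and Cst3 in part. The CACGTG copies of Ctsl and Ctsa and the one at -98 of Ctsd are thus inside the gene, and the one at -245 of Ctsd is outside it. The motifs were chosen with the sequences in view, and a match of letters does not show that a factor binds there.

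Depth was between 6702948 and 10447101 reads counted on genes per library, and the members had between 412 and 35787 raw counts in a library, far above the 3 counts below which a gene was taken as not detected. After vehicle, Pear1 itself had 547 ± 28.8 normalized counts (SD, n = 3) with the WT label and 519.7 ± 24.0 with the Pear1-/- label, -0.08 as a log2 fold change with a standard error of 0.0766 (adjusted p = 0.490 in edgeR). After bleo it had 254 ± 14.0 and 357 ± 14.2, without overlap and higher under the Pear1-/- label (log2 fold change 0.48, SE 0.0811, adjusted p = 7.54e-05). The libraries of the vehicle groups overlapped. The cassette of the tm1a allele sits in an intron within the gene and, per the study's methods, truncates the transcript. The counts cover the whole gene, exons before and after the insertion alike, and were not split by exon. Pear1 RNA was not called lower under the Pear1-/- label with vehicle or with bleo, and why was not tested. Without counts by exon the genotype was not checked here, and each group is named below as it was labelled. WT vehicle replicate 2 stood apart from replicates 1 and 3 and is treated with and without in the results that rest on it. It had the highest normalized count of its group for 10 of the 10 members, against 42.3% of the tested genes, and for 7 members it lay within the range of the libraries labelled Pear1-/- vehicle. Pdgfra, which encodes the protein sorted for, had 4565 ± 325 normalized counts (SD, n = 3) with vehicle and 1360.1 ± 29.9 with bleo in WT libraries, and 4165 ± 39.1 with vehicle and 2392 ± 18.8 with bleo among libraries labelled Pear1-/-. The 17 leukocyte and macrophage markers counted together reached 23836 to 29766 with vehicle and 193789 to 195216 with bleo in WT libraries, and 29221 to 30968 with vehicle and 77286 to 79326 with bleo among libraries labelled Pear1-/-, and none of them was at 0 in any group. In bulk RNA, fewer cells of a type and less RNA per cell cannot be told apart.

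After bleo, WT cells had more RNA of 9 of the 10 genes, from 1.53-fold for Cst3 to 13.1-fold for Ctss, and slightly less Ctsl, a difference that was not called in 8 of 14 other settings. In the libraries labelled Pear1-/-, bleo raised 8 of them, 7 of these less than in WT and Ctsk more. Normalized counts are raw counts scaled by the size factor that the authors used for each library. The fold changes, given as log2 with their standard error (SE), and the adjusted p were taken from a quasi-likelihood test in edgeR fitted to all 17418 genes. In WT bleo against WT vehicle 9 members were higher and 1 was lower at an adjusted p under 0.05, where 31.4% of all tested genes were higher and 36.5% lower. Of the 9, 7 also passed a 2-fold change, which 10.5% of tested genes did upward. The libraries of the 2 groups did not overlap for any of the 10 members, as for 68.7% of tested genes. The members' median log2 fold change was 1.58, against -0.07 over all tested genes and 0.19 over the tested genes whose mean log2 CPM was 5 or more.

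**Figure D1:**
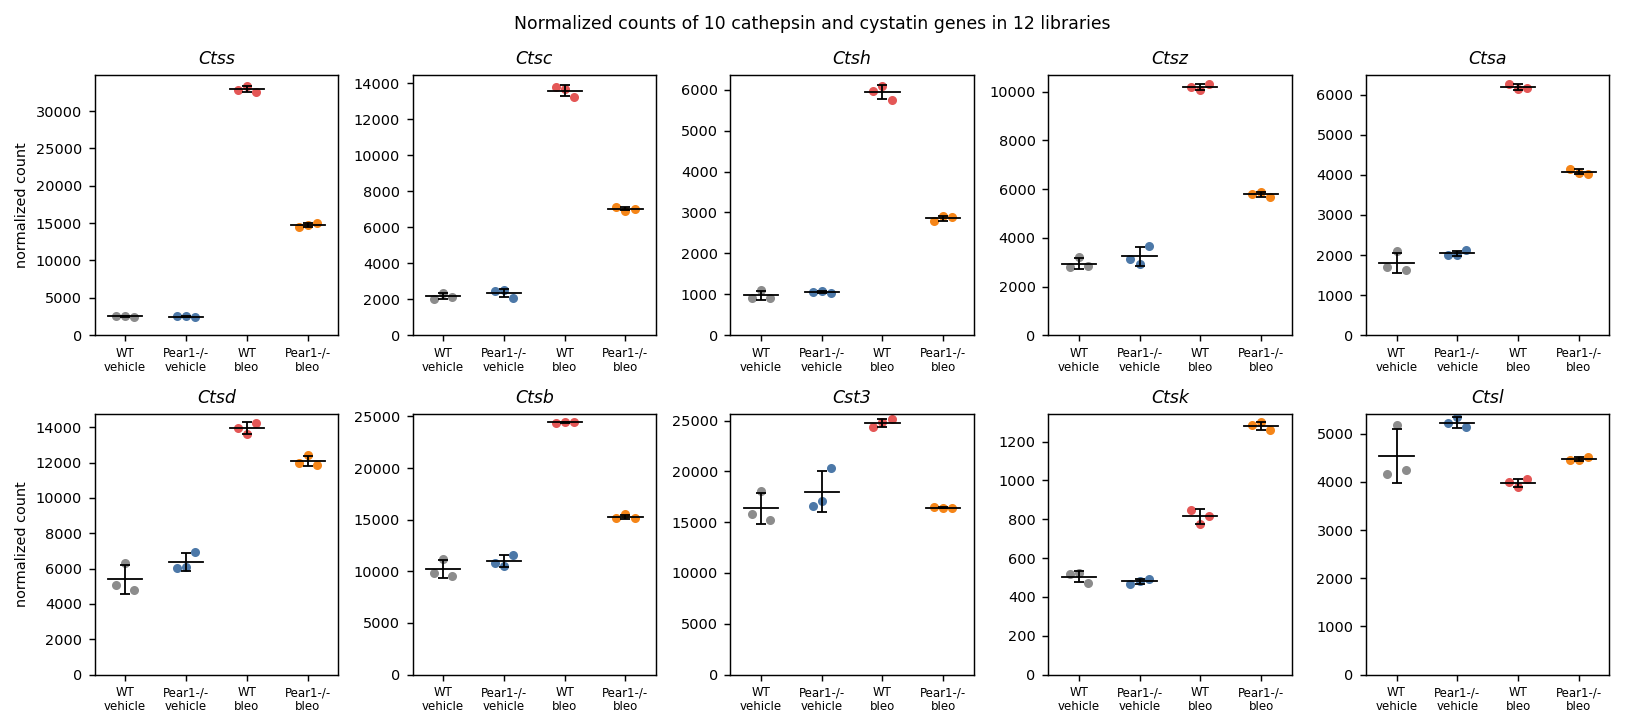
Normalized counts of the 10 genes (vertical axis, from 0) in the 4 groups (horizontal axis). Each point is 1 library, the horizontal bar is the group mean and the error bar the SD (n = 3). Ctss rises from 2412 to 2599 in the 6 vehicle libraries to 32503 to 33334 in WT bleo, Ctsk is highest in the libraries labelled Pear1-/- bleo, and Ctsl is the only gene whose 3 WT bleo points lie below all vehicle points.

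Ctss, an elastin-degrading protease that stays active at neutral pH and trims the invariant chain of MHC class II, changed most. It had 2547, 2599 and 2473 normalized counts with vehicle and 32868, 33334 and 32503 with bleo in WT libraries, against 2537, 2519 and 2412 and then 14529, 14784 and 14954 among libraries labelled Pear1-/-. The vehicle libraries of both genotypes overlapped, both bleo groups lay far above them, and the bleo groups were separated from each other. Its log2 fold change was 3.71 in WT (SE 0.0586, adjusted p = 3.58e-19) and 2.57 among libraries labelled Pear1-/- (SE 0.0558, adjusted p = 3.73e-17).

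Ctsc, the dipeptidyl peptidase that activates the serine proteases of leukocyte granules, followed the same order. It had 2025, 2348 and 2143 normalized counts with vehicle and 13805, 13689.7 and 13227 with bleo in WT libraries, against 2456, 2504 and 2084 and then 7107, 6922 and 7028 among libraries labelled Pear1-/-. Every bleo library was above every vehicle library, and the log2 difference reached 2.66 in WT (SE 0.0767, adjusted p = 5.25e-16) and 1.58 among libraries labelled Pear1-/- (SE 0.0739, adjusted p = 1.08e-12). Ctsh is an aminopeptidase that takes part in processing surfactant proteins in alveolar type II cells. It had 914, 1108 and 918 normalized counts with vehicle and 5973, 6090.2 and 5756 with bleo in WT libraries, against 1066, 1079 and 1038 and then 2793, 2902 and 2896 among libraries labelled Pear1-/-. Its vehicle groups overlapped, and its log2 fold changes were 2.61 in WT (SE 0.0770, adjusted p = 6.73e-16) and 1.44 among libraries labelled Pear1-/- (SE 0.0742, adjusted p = 4.96e-12).

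Ctsz, a carboxypeptidase that removes single residues, and Ctsb, an endopeptidase that also cuts dipeptides from C-terminal ends, rose less. Ctsz had 2784, 3215 and 2824 normalized counts with vehicle and 10205, 10069 and 10317 with bleo in WT libraries, against 3113, 2935 and 3668 and then 5802, 5872 and 5684 among libraries labelled Pear1-/-. The log2 fold change of Ctsz was 1.81 in WT (SE 0.0796, adjusted p = 2.76e-13) and 0.84 among libraries labelled Pear1-/- (SE 0.0778, adjusted p = 2.44e-08). Both bleo groups were thus separated from their vehicle group and from each other. Ctsb had 9809, 11186 and 9562 normalized counts with vehicle and 24393, 24458 and 24478 with bleo in WT libraries, against 10789, 10490.2 and 11596 and then 15113, 15512 and 15166 among libraries labelled Pear1-/-. The log2 fold change of Ctsb was 1.27 in WT (SE 0.0634, adjusted p = 1.71e-12) and 0.48 among libraries labelled Pear1-/- (SE 0.0626, adjusted p = 2.19e-06). The latter was the smallest of the increases that passed the test in the libraries labelled Pear1-/-.

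Ctsk, the collagen-degrading cathepsin of osteoclasts that lung fibroblasts also make, was the one member with a larger increase after bleo in the libraries labelled Pear1-/- than in WT. It had 517, 524 and 472 normalized counts with vehicle and 849.5, 777 and 816 with bleo in WT libraries, against 467, 483 and 491 and then 1284, 1299.7 and 1260.1 among libraries labelled Pear1-/-. The 3 libraries labelled Pear1-/- bleo were the highest of all 12. Its log2 fold change was 0.70 in WT (SE 0.0686, adjusted p = 3.71e-08) and 1.42 among libraries labelled Pear1-/- (SE 0.0682, adjusted p = 1.66e-12).

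Ctsl, a broad-acting endopeptidase found in many cell types, was the only member lower after bleo in both genotypes at an adjusted p under 0.05. It had 4167, 5189 and 4254 normalized counts with vehicle and 4002, 3893 and 4056 with bleo in WT libraries, against 5223, 5339 and 5130.3 and then 4448, 4444 and 4518 among libraries labelled Pear1-/-. Replicate 2 of WT vehicle lay with the libraries labelled Pear1-/- vehicle, and the gap between the other WT vehicle libraries and WT bleo was narrow. The log2 fold change was -0.18 in WT (SE 0.0731, adjusted p = 0.0400), which became -0.00381 (adjusted p = 0.948) without WT vehicle replicate 2 and was not called under 7 other settings. In the libraries labelled Pear1-/- it was -0.22 (SE 0.0730, adjusted p = 0.0126), a call lost under 6 settings, among them those that left out Pear1-/- vehicle replicate 1 or 2 or any 1 of the Pear1-/- bleo libraries (adjusted p from 0.0516 to 0.0648).

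Ctsd and Ctsa belong to other protease classes and also rose after bleo. Ctsd, the main aspartic protease of the lysosome, had 5057, 6343 and 4803 normalized counts with vehicle and 13978, 13607 and 14258 with bleo in WT libraries, against 6014, 6103 and 6936 and then 11996, 12427 and 11884 among libraries labelled Pear1-/-. Its log2 fold change was 1.38 in WT (SE 0.0850, adjusted p = 4.39e-11) and 0.93 among libraries labelled Pear1-/- (SE 0.0841, adjusted p = 1.76e-08). The 2 bleo groups lay closer together for Ctsd than for the cysteine cathepsins other than Ctsl. Ctsa, a carboxypeptidase that also shields the lysosomal sialidase and beta-galactosidase from degradation, had 1706, 2093 and 1631 normalized counts with vehicle and 6265, 6141 and 6161 with bleo in WT libraries, against 1999.9, 2012 and 2118 and then 4148, 4056 and 4027 among libraries labelled Pear1-/-. Its log2 fold change was 1.78 in WT (SE 0.0795, adjusted p = 3.21e-13) and 1.0 among libraries labelled Pear1-/- (SE 0.0780, adjusted p = 2.15e-09). Up to 495 of the 4715 exonic bases of Ctsa overlap Pltp on the other strand, and 774 of 6051 of Ctsb overlap Fdft1. Of the exonic bases of Ctsd 808 of 2351 are shared with Gm49369 on the same strand, and of those of Ctsl 1742 of 6489 lie opposite Gm47123. The cDNA kit does not mark strand, so reads in stretches shared with a gene on the other strand cannot be assigned to one gene. For Ctsd strand would not separate the reads, as Gm49369 is on the same strand. Neither Gm49369 nor Gm47123 is among the genes counted.

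Cst3, the inhibitor, was raised by bleo in WT alone at an adjusted p under 0.05, and that difference between the genotypes was itself past the test. It had 15837, 18026 and 15186 normalized counts with vehicle and 24326, 24809.5 and 25109 with bleo in WT libraries, against 16633, 17039.7 and 20349 and then 16442, 16374 and 16436 among libraries labelled Pear1-/-. The libraries labelled Pear1-/- bleo lay inside the range of WT vehicle and just under that of Pear1-/- vehicle. The log2 fold change was 0.61 in WT (SE 0.0736, adjusted p = 6.67e-07) and -0.13 among libraries labelled Pear1-/- (SE 0.0733, adjusted p = 0.132), the latter being -0.21 without Pear1-/- vehicle replicate 1 and -0.044 without replicate 3, called in neither case. The interaction was -0.74 (SE 0.104, adjusted p = 1.87e-05).

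In the libraries labelled Pear1-/-, bleo gave 8 members higher, 1 lower and 1 not called, against 29.1% of all tested genes higher and 33.1% lower. With a 2-fold change as well, 5 were higher, Ctss, Ctsc, Ctsh, Ctsk and, at the threshold, Ctsa, against 8.37% of tested genes. For all 10 members the libraries of the 2 groups did not overlap, as for 70.9% of tested genes. The members' median log2 fold change was 0.97, against -0.05 over all tested genes.

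**Figure D2:**
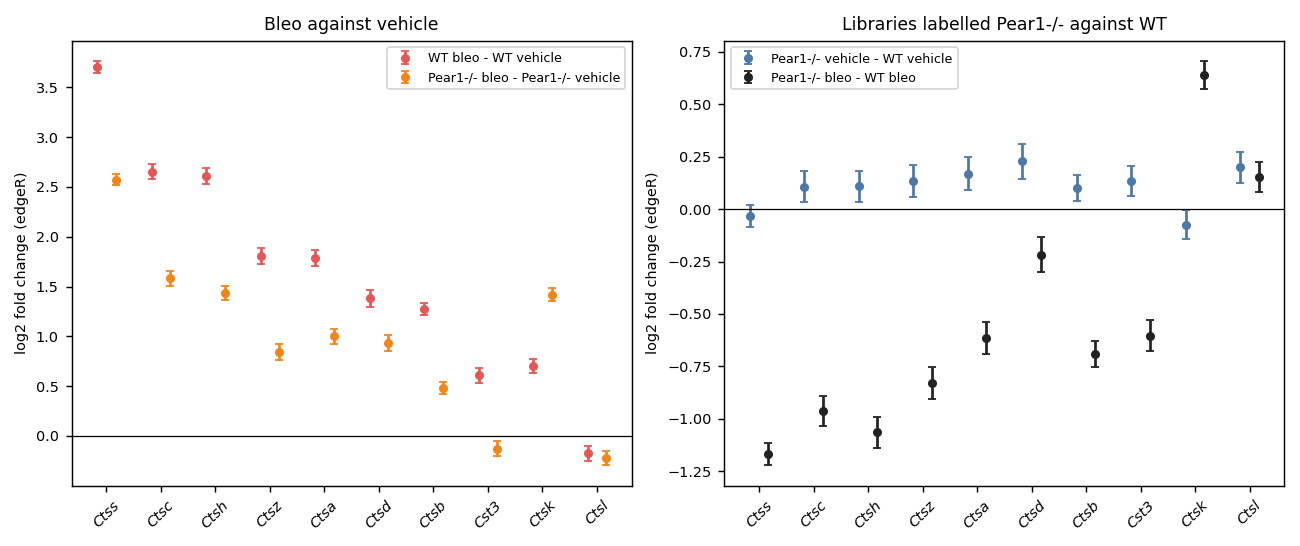
Log2 fold changes (vertical axis) of the 10 genes (horizontal axis), points with their standard error. The left panel sets bleo against vehicle for each genotype label, and the right panel sets the libraries labelled Pear1-/- against WT after vehicle and after bleo. Ctss falls from 3.71 to 2.57 between the genotypes in the left panel while Ctsk rises from 0.70 to 1.42.

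The interaction of genotype and bleo compares the response to bleo in the libraries labelled Pear1-/- with that in WT. It was lower for 8 members, higher for Ctsk and not called for Ctsl, against 19.3% of all tested genes lower and 17.8% higher. For Ctss the interaction was -1.14 on the log2 scale (SE 0.0748, adjusted p = 1.80e-09), for Ctsh -1.17 (SE 0.104, adjusted p = 6.69e-08) and for Ctsc -1.07 (SE 0.103, adjusted p = 1.82e-07). These 3 were the members whose response differed by more than 2-fold, as 6.98% of tested genes did in that direction. For Ctsk it was 0.72 (SE 0.0961, adjusted p = 1.12e-05), the one positive value. For Ctsl it was -0.05 (SE 0.103, adjusted p = 0.758), and -0.24 (adjusted p = 0.00311) without WT vehicle replicate 2, so that all 10 members were called without that library, as were 46.4% of the 20405 genes then tested.

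Directly compared after bleo, the libraries labelled Pear1-/- held less RNA of 8 members than WT, more Ctsk, and an amount of Ctsl that did not pass the test. The background was 24% of tested genes lower and 22.1% higher. The libraries of the 2 groups were apart for all 10 members and for 62.9% of tested genes. Ctss was 2.25-fold lower (log2 fold change -1.17, SE 0.0531, adjusted p = 2.61e-12), and Ctsh 2.09-fold lower (log2 fold change -1.07, SE 0.0727, adjusted p = 6.79e-10). They were the 2 members past a 2-fold change, as 8.8% of tested genes were downward. Ctsc was 1.95-fold lower (adjusted p = 2.57e-09), Ctsz 1.78-fold (adjusted p = 5.16e-08), Ctsb 1.62-fold (adjusted p = 3.39e-08), Ctsa 1.53-fold (adjusted p = 2.36e-06) and Cst3 1.52-fold (adjusted p = 1.60e-06). Ctsd was 1.16-fold lower (adjusted p = 0.0394), a call that was lost under 11 of 14 other settings, including the omission of any 1 of the 6 bleo libraries (adjusted p from 0.106 to 0.186). Ctsk was 1.56-fold higher (log2 fold change 0.64, SE 0.0662, adjusted p = 1.95e-07). For Ctsl the log2 fold change was 0.15 (SE 0.0730, adjusted p = 0.0941). Beside these values, the leukocyte and macrophage markers were lower in 16 of 17 genes, with a median of -1.32, and the 13 fibroblast markers were higher in 7 and lower in 2, with a median of 0.62. Their part in the differences was not tested.

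After vehicle, 0 of the 10 members passed the adjusted threshold between the genotypes in edgeR's test, and the libraries of the groups overlapped for all 10, whereas 19.2% of tested genes had no overlap. Among all tested genes 7.24% were called, a share that went to 0 in edgeR with the 2 vehicle groups alone or when any 1 vehicle library but WT vehicle replicate 2 was left out, where 2961 to 5876 genes had an unadjusted p under 0.05. At an unadjusted p under 0.05 there were 3 members, Ctsa, Ctsd and Ctsl, with log2 fold changes of 0.17, 0.23 and 0.20, and 31.4% of all tested genes were below that p. DESeq2's Wald test and both limma fits also called 0. This comparison turned on WT vehicle replicate 2, since without it 8 members were higher in the libraries labelled Pear1-/-, by log2 fold changes from 0.24 for Ctsc to 0.43 for Ctsd, and Ctsk and Ctss stayed uncalled. Without that library 25.5% of the 20405 genes then tested were also higher, so that the added calls were not limited to the members. The median of the 10 was 0.12 with that library and 0.28 without it, where that over all tested genes whose mean log2 CPM was 5 or more was 0.10 and 0.22.

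Levels of different genes were compared per kb of transcript, with the shortest RefSeq-matched transcript of each gene as its length. In WT vehicle, Cst3 led with 19011 ± 1730.1 normalized counts per kb (SD, n = 3), far above Ctsd at 2539 ± 388. Ctsd, Ctsl, Ctsb and Ctsz followed in that order with ranges that overlapped from each to the next, then Ctss at 1874 ± 46.7, below all Ctsz values. Ctsc, Ctsa and Ctsh also overlapped from each to the next, and Ctsk came last at 333 ± 18.6. The order of the means was the same in the libraries labelled Pear1-/- vehicle, where among neighbours only Ctsb and Ctsz overlapped.

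After bleo the order changed at its upper end. In WT bleo Ctss took the second place at 24282 ± 307 normalized counts per kb, next to Cst3 at 28777 ± 459.8, and Ctsz followed at 7076 ± 86.1. Ctsl moved from the third place to the ninth, at 2021 ± 42.1, and Ctsk stayed last at 538 ± 24.0. In the libraries labelled Pear1-/- bleo the order began with Cst3 at 19090.0 ± 43.6, Ctss at 10890.0 ± 158 and Ctsd at 5689.9 ± 135, and Ctsk was again last at 847 ± 13.2. No neighbours in either bleo group overlapped. The order depends on the length taken. With all annotated exons as the length, Ctsl would have 699 in place of 2302 normalized counts per kb in WT vehicle and the sixth place, and Ctsh would be last in place of Ctsk in both vehicle groups and in Pear1-/- bleo. Ctss would then be above Cst3 in WT bleo, and Ctsk would stay last there.

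As a share of the summed cysteine cathepsin RNA per kb, Ctss went from 18.5% ± 1.09 (SD, n = 3) in WT vehicle to 50.4% ± 0.299 in WT bleo, and, among libraries labelled Pear1-/-, from 16.8% ± 0.723 to 42.2% ± 0.379. Over the same groups the share of Ctsl went from 22.6% ± 1.0 to 4.19% ± 0.118 in WT libraries and from 24.2% ± 0.889 to 8.78% ± 0.0804 among those labelled Pear1-/-. The share of Ctsk was 3.28% ± 0.209 with vehicle and 1.12% ± 0.0527 with bleo in WT libraries, against 2.90% ± 0.0644 and then 3.28% ± 0.0566 among those labelled Pear1-/-. Ctsk thus took a smaller share in WT bleo than in WT vehicle although its level was higher. With all annotated exons as the length, the share of Ctss was 26.0% ± 1.24 in WT vehicle and 60.3% ± 0.373 in WT bleo, and that of Ctsl 9.66% ± 0.542 and 1.53% ± 0.0418. The share of Ctsk among libraries labelled Pear1-/- was then 4.15% ± 0.126 with vehicle and 4.08% ± 0.0688 with bleo, so that its rise there is lost with the longer lengths. All 7 cysteine cathepsins together came to 0.536 ± 0.0119 times Cst3 in WT vehicle and 0.527 ± 0.0485 in Pear1-/- vehicle. After bleo the ratio was 1.67 ± 0.0362 in WT and 1.35 ± 0.0116 among libraries labelled Pear1-/-, so that protease RNA exceeded inhibitor RNA per kb in all 6 bleo libraries and in 0 vehicle libraries. The 10 genes took 0.559% ± 0.00981 of all counts with vehicle and 1.54% ± 0.00136 with bleo in WT libraries, against 0.558% ± 0.0252 and then 0.939% ± 0.00434 among those labelled Pear1-/-. With 3 libraries against 3 an exact two-sided permutation test cannot go below p = 0.1, which 28 of the 36 comparisons of 9 ratios reached, and no adjusted value could pass a threshold of 0.05.

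**Figure D3:**
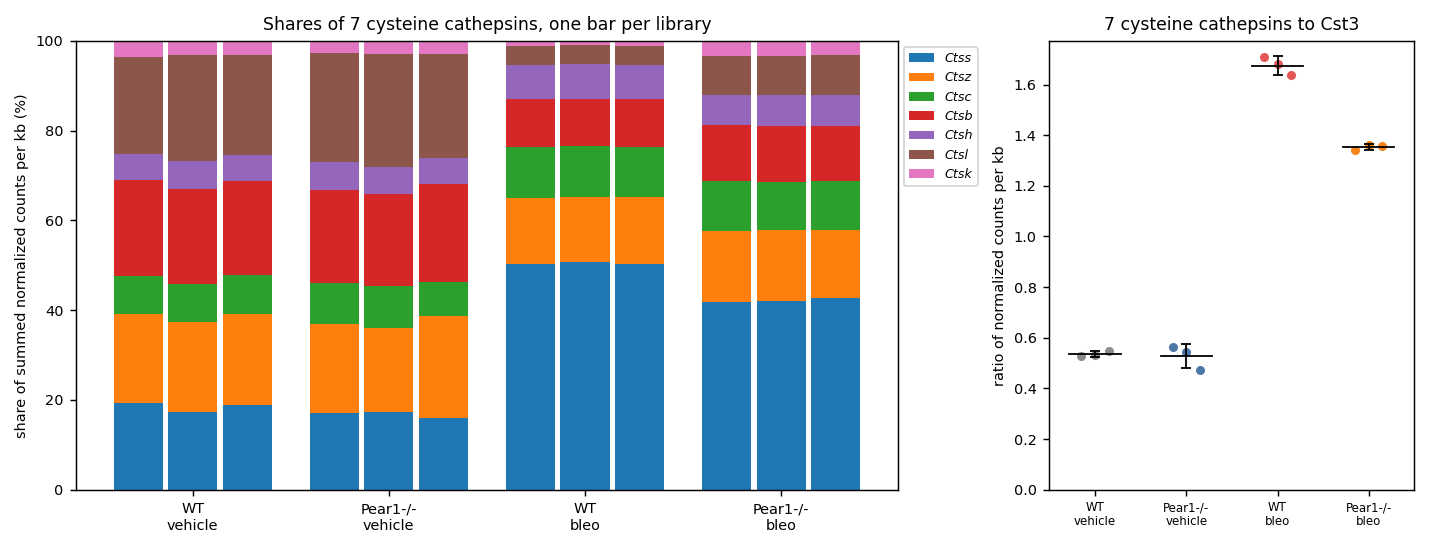
Left, the share of each of 7 cysteine cathepsins in their summed normalized counts per kb (vertical axis, percent), with 1 bar for each of 12 libraries in 4 groups. Right, the ratio of their sum to Cst3 per library, with group mean and SD (n = 3). The Ctss share is near 50% in WT bleo and near 42% in the libraries labelled Pear1-/- bleo, and the ratio to Cst3 lies above 1 only in bleo libraries.

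Ctss and Ctsk were also set against the RNA of a marker in the same library. Ctss to Ptprc, which encodes the leukocyte antigen CD45, was 0.846, 0.674 and 0.813 in WT vehicle and 0.632, 0.643 and 0.685 in Pear1-/- vehicle. It was 4.34, 4.31 and 4.31 in WT bleo and 4.21, 4.56 and 4.39 in Pear1-/- bleo, and the latter overlapped (exact permutation p = 0.7). Ptprc is 1 of 17 leukocyte and macrophage markers, and the result depends on the marker taken. With each of the 17 in turn, the ratio of Ctss was higher in all WT bleo than in all WT vehicle libraries for 13 and lower for 4, Cx3cr1, C1qa, C1qb and C1qc. Between the bleo groups it was higher under the Pear1-/- label for 10, lower for 3 and overlapping for 4. Ctsk to Pdgfra was 0.108, 0.125 and 0.10 with vehicle and 0.630, 0.581 and 0.585 with bleo in WT libraries, against 0.112, 0.115 and 0.119 and then 0.534, 0.548 and 0.525 among libraries labelled Pear1-/-. Relative to Pdgfra, Ctsk was higher in all 3 WT bleo libraries than in those labelled Pear1-/- bleo (exact permutation p = 0.1, the smallest that 3 against 3 allows), but this too depends on the marker. With each of the 13 fibroblast markers in turn, the ratio of Ctsk was higher under the Pear1-/- label for 6, lower for 6 and overlapping for 1. The neighbours compared with each other per kb, Ctss to Ctsk, gave 5.63 ± 0.192 (SD, n = 3) with vehicle and 45.2 ± 2.43 with bleo in WT libraries, against 5.79 ± 0.293 and then 12.9 ± 0.338 among libraries labelled Pear1-/-.

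**Figure D4:**
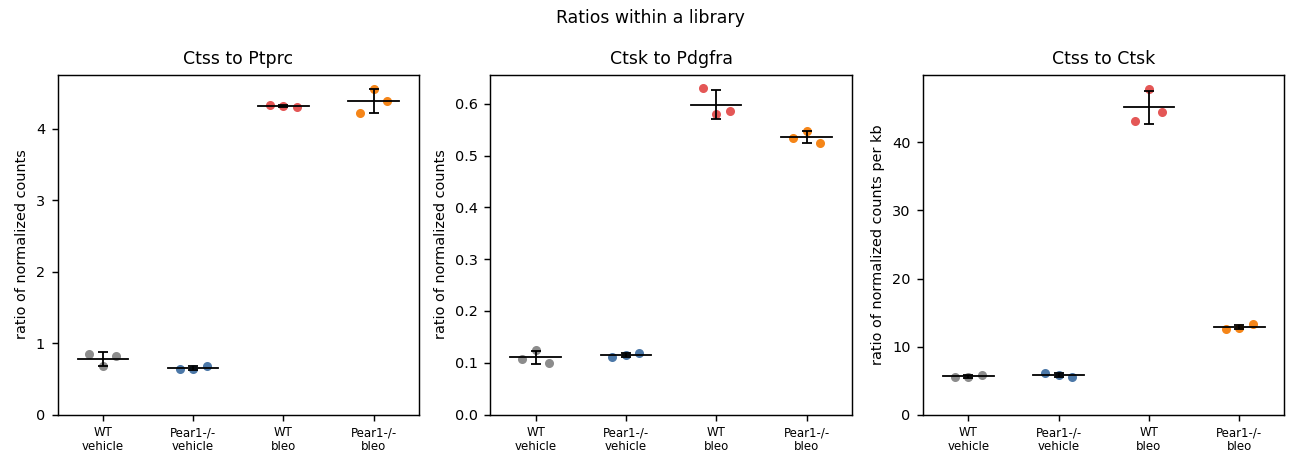
Ratios within each library (vertical axes, from 0) in the 4 groups (horizontal axis), 1 point per library with group mean and SD (n = 3). Ctss to Ptprc overlaps between the bleo groups at 4.21 to 4.56, Ctsk to Pdgfra is 0.525 to 0.630 after bleo, and Ctss to Ctsk separates WT bleo at 43.2 or more from the libraries labelled Pear1-/- bleo at 13.2 or less.

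Of 20 other cathepsins and proteases of the lysosome 11 were tested, and in WT bleo against WT vehicle 4 were higher and 5 lower, with a median of -0.04, against 31.4% and 36.5% of all tested genes. These shares are near the background. The 4 were Lgmn, the asparaginyl endopeptidase that processes several cathepsins (log2 fold change 2.14, SE 0.0727), Prcp (1.20), Napsa (1.18), an aspartic protease of type II cells, and Tpp1 (0.80). Lower were the cysteine cathepsins Ctso (-0.80), Ctsf (-0.29) and Ctsw (-1.34), the last found in lymphocytes, and the aspartic Ctse (-1.17). Between the bleo groups Lgmn (-0.51), Tpp1 (-0.53), Prcp (-0.85) and Dpp7 (-0.38) were lower in the libraries labelled Pear1-/-, and Ctse was higher (1.25). Scpep1 (-0.14), Ctsf (0.05), Ctso (-0.05), Ctsw (-0.16) and Napsa (-0.17) did not pass the test there. The fifth gene lower in WT bleo was Cts8, one of 8 cathepsins of a rodent placental cluster, with 18.6 ± 11.7 normalized counts among WT vehicle libraries, 10.2 ± 1.63 among those labelled Pear1-/- vehicle and a mean under 1 in both bleo groups. Together the 8 had 108, 21 and 83 raw counts with vehicle and 2, 0 and 3 with bleo in WT libraries, against 32, 25 and 20 and then 1, 1 and 0 among libraries labelled Pear1-/-. WT vehicle replicates 1 and 3, which stood apart from replicate 2, also held the most of these counts.

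Among inhibitors, 9 of 20 further cystatins and related genes were tested. In WT bleo against WT vehicle 2 were higher, against 31.4% of all tested genes, and 7 lower, against 36.5%. Cstb, which encodes the cytoplasmic inhibitor stefin B, went from 738 ± 88.2 to 1856 ± 31.6 normalized counts in WT (log2 fold change 1.34, adjusted p = 2.85e-11). Among libraries labelled Pear1-/- it went from 808 ± 54.8 to 1775 ± 31.6 (1.14, adjusted p = 4.43e-10). Its interaction was -0.20 (adjusted p = 0.172), where that of Cst3 was -0.74. Ctla2b, a homologue of a cathepsin propeptide, was higher in WT bleo (1.28, adjusted p = 3.58e-06) and lower in Pear1-/- bleo than in WT bleo (-1.40, adjusted p = 1.96e-06). The 7 lower genes were Cst7, Cst8, Stfa2l1, Kng1, Fetub, Ahsg and Ctla2a, and Ctla2a had 348 ± 151 normalized counts in WT vehicle and 221 ± 11.5 in WT bleo. Between the bleo groups Cst7 (0.82) and Stfa2l1 (1.27) were higher in the libraries labelled Pear1-/-, at mean levels of at most 41.6 normalized counts.

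In the 4 wider lysosomal gene lists (hydrolases, vacuolar ATPase, membrane proteins, sorting and regulation), chosen with earlier results of these data known, medians were above 0 in WT bleo against WT vehicle and below 0 between the bleo groups, nearer to 0 than those of the 10 genes. For the counts of these lists and of MHC class II, 31.4% of all tested genes were higher and 36.5% lower in the first comparison, and 22.1% higher and 24% lower in the second. Of 35 other hydrolases, 24 were higher and 9 lower in WT bleo against WT vehicle, with a median of 0.64, and 2 were higher and 22 lower in Pear1-/- bleo against WT bleo, with a median of -0.37. Acp5, an acid phosphatase of macrophages and osteoclasts, rose by 2.16 on the log2 scale and Man2b1, an alpha-mannosidase, by 1.97, whereas Gaa, the acid alpha-glucosidase, had -0.94 and Smpd1, the acid sphingomyelinase, -0.64. Between the bleo groups Acp5 fell by 0.96, and Smpd1 was higher by 0.38. Of 18 subunits of the vacuolar ATPase, the pump that acidifies the lysosome, 16 rose and 0 fell in WT bleo, with a median of 0.80, and 0 were higher and 13 lower between the bleo groups, with a median of -0.37. Tcirg1, a subunit abundant in osteoclasts and macrophages, had the values 1.95 and -0.85, and the widely expressed Atp6v0a2 had 0.17 (adjusted p = 0.0853) and 0.13 (adjusted p = 0.203).

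Of 16 lysosomal membrane proteins, 11 were higher and 3 lower in WT bleo (median 0.66), and 3 higher, 8 lower and 5 uncalled between the bleo groups (median -0.39). Cd68, a macrophage member of the family, had a log2 fold change of 2.90 and then -1.23, and Laptm4a, a widely expressed one, -0.49 and then 0.25. Of 13 genes of sorting and regulation, 8 were higher and 2 lower (median 0.58), then 0 higher, 6 lower and 7 uncalled (median -0.16). The mannose 6-phosphate receptors, which carry cathepsin precursors, differed, with 0.90 for M6pr and -0.51 for Igf2r in WT bleo. M6pr was lower between the bleo groups (-0.45, adjusted p = 2.11e-05), and Igf2r was not called (0.18, adjusted p = 0.228). The 6 genes of MHC class II and its invariant chain, the substrate of Ctss, were all higher in WT bleo, with a median of 2.42, and all lower in Pear1-/- bleo than in WT bleo, with a median of -1.21. Cd74, the invariant chain, had 2.20 and H2-DMb1, which helps peptide loading, 2.78 in WT bleo, and H2-Eb1 had -1.39 between the bleo groups.

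**Figure D5:**
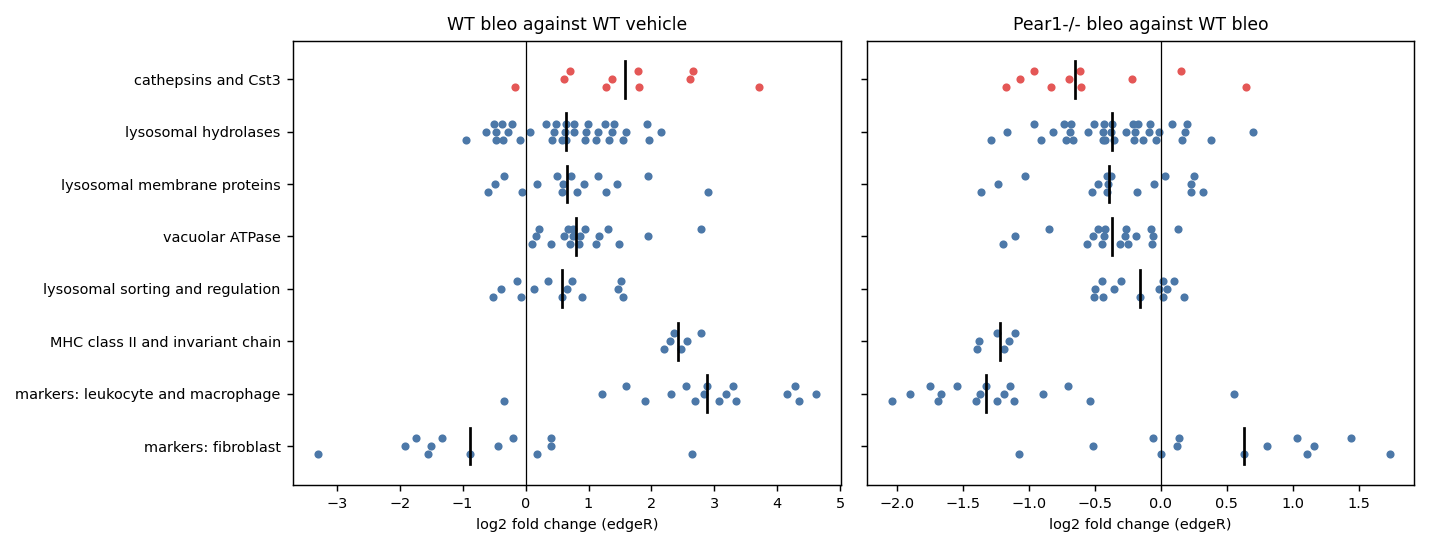
Log2 fold changes (horizontal axis) in WT bleo against WT vehicle (left) and in the libraries labelled Pear1-/- bleo against WT bleo (right), 1 point per tested gene, for the 10 cathepsin and Cst3 genes, 5 lysosomal and antigen-presentation lists and 2 marker lists (vertical axis). The black bar is the median, 1.58 and -0.65 for the 10 genes, 2.88 and -1.32 for leukocyte and macrophage markers.

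In WT bleo 16 of 17 leukocyte and macrophage markers were higher, with a median of 2.88, against 31.4% of all tested genes. In the libraries labelled Pear1-/- bleo 15 were higher, with a median of 1.49, against 29.1%. Of 8 epithelial markers, 2 were higher and 6 lower in WT bleo, and 1 higher and 6 lower in Pear1-/- bleo. Their summed normalized counts were 37884 to 55643 with vehicle and 14261 to 14475 with bleo in WT libraries. Among libraries labelled Pear1-/- they were 52326 to 61495 with vehicle and 6413 to 6510 with bleo. Summed fibroblast markers reached 156548 to 173848 normalized counts with vehicle and 128269 to 129526 with bleo in WT libraries, against 172123 to 178916 and then 322009 to 332637 among libraries labelled Pear1-/-. The level of Ctsk was higher after bleo in both genotypes, while the fibroblast sum was lower in WT bleo and higher in Pear1-/- bleo than in the vehicle groups. Of all tested genes, 31.4% were higher and 36.5% lower in WT bleo, and 29.1% higher and 33.1% lower among libraries labelled Pear1-/-. Gene by gene, 4 of the 13 fibroblast markers were higher and 9 lower in WT bleo (median -0.89), and 5 were higher and 8 lower among libraries labelled Pear1-/- (median -0.80). The sum in Pear1-/- bleo was thus carried by a minority of abundant genes such as Col1a1, and Pdgfra itself was lower (-0.80). The part of any cell type in the members' changes was not tested. The labels name Cd140a alone for the sort. The study describes Pdgfra+ mesenchymal cells as negative for CD45, CD31 and CD326, and the cells taken for RNA-seq as nearly all fibroblasts, but does not state that this negative gate was used for these libraries. Ptprc, the gene of CD45, had from 3010 to 7727 normalized counts in the 12 libraries.

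Across the 12 libraries each member was set beside the gene with the most similar profile, by Pearson's r of log2 CPM among 5507 genes whose mean log2 CPM was 5 or more. These libraries fall into groups, which all genes share, so r mainly repeats the order of the groups and is a description. Ctss was nearest to the Fc receptor gene Fcgr2b (0.999), Ctsc to Fcgr3 (0.998), Ctsa to Cyba (0.999), a subunit of the phagocyte oxidase, Ctsz to Acp5 (0.998) and Ctsb to Ftl1 (0.999), the ferritin light chain. Ctsh was nearest to Ear2 (0.999), an eosinophil-associated ribonuclease, and Ctsd to Clic1 (0.999). Ctsk was nearest to Postn (0.996), which encodes the matrix protein periostin of activated fibroblasts, and Postn had log2 fold changes of 1.41 in WT bleo, 2.61 in Pear1-/- bleo against its vehicle, and 1.20 between the bleo groups. Ctsl was nearest to Cyp1b1 (0.987) and Cst3 to Ighd (0.981), the least close of the 10.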

How the data were processed

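Pdgfra+ (Cd140a+) cells from mouse lung were profiled by bulk RNA-seq with SMART-Seq v4 cDNA and TruePrep V2 libraries, and reads were aligned to GRCm38 with HISAT2, per the study's methods. The counting program is not given in the sources used here. The authors deposited raw counts per gene, and a signal table in which the same counts are divided by a size factor per library, called normalized counts here. Libraries were grouped by their labels, 3 per group, with totals from 6702948 to 10447101 counts. Counting floors (3 counts) cover counting error only.

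Counts were tested with edgeR 4.0.16 in R 4.3.3 (filterByExpr, TMM, robust quasi-likelihood F test, two-sided, one mean per group over all 12 libraries, Benjamini-Hochberg over 17418 genes), checked on simulated counts. Alternatives were DESeq2 1.42.0 (size factors, Wald test), limma 3.58.1 on VST values, as in the study, or on log2 of normalized counts with a pseudocount of 1, no filter, the 2 groups alone, a replicate block and each library left out. The fit without robust estimation and the use of all annotated exons as gene length, and ratios to each marker in turn, were added after seeing the data. The members, gene lists, markers and motifs were chosen with earlier results of these data known. All 10 members were named, together with the tested relatives. Of each other list the 2 largest and 2 smallest changes were eligible among genes whose mean log2 CPM was 5 or more, and of these a selection is printed. For likeness the gene of highest r was named, and Postn's fold changes were added after its values were seen. Coordinates and lengths are from GENCODE M21, which held 40452 of the 40760 gene identifiers, and promoters from RefSeq. Tables were handled with pandas 2.3.3. Protein sequences were not used here.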

Additional observations from a re-analysis of the deposited data

Results flagged for a closer look

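For 9 of the 10 genes the response to bleo differed by genotype label, by the interaction term in edgeR at an adjusted p under 0.05. Of all tested genes, 19.3% were lower and 17.8% higher in that test. The interaction, the log2 fold change in the libraries labelled Pear1-/- minus that in WT, was -0.78 for Ctsa (adjusted p = 1.76e-05), -0.79 for Ctsb (adjusted p = 1.24e-06), -1.07 for Ctsc (adjusted p = 1.82e-07), -0.45 for Ctsd (adjusted p = 0.00605), -1.17 for Ctsh (adjusted p = 6.69e-08), -1.14 for Ctss (adjusted p = 1.80e-09) and -0.96 for Ctsz (adjusted p = 1.56e-06). It was -0.74 for the inhibitor gene Cst3 (adjusted p = 1.87e-05). For Ctsk it was 0.72 (adjusted p = 1.12e-05), the one member with a larger increase in the libraries labelled Pear1-/-. Each of the 9 was called in the same direction in all 19 other settings. The leukocyte and macrophage markers had a median interaction of -1.40, with 16 of 17 lower, and the fibroblast markers one of 0.45, with 7 of 13 higher and 2 lower, and their part in the members' differences was not tested.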

How the results depend on the processing

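Of the member values recomputed under other settings, 704 kept their direction and their side of the threshold, 25 lost and 13 gained a call, and 8 changed sign. The number of members called stayed within 1.5 times the value reported in each comparison except between the vehicle groups, where it was 0, 2 without a filter on low counts, and from 0 to 8 with 1 library left out, 8 being the count without WT vehicle replicate 2. The changes of sign were in values near 0. Between the vehicle groups Ctsk (-0.07) became 0.020 with no filter and ranged from -0.12 to 0.027 with 1 library left out, the latter without WT vehicle replicate 2. Ctss (-0.03) became 0.061 with no filter and ranged from -0.050 to 0.056 with 1 library left out, being 0.056 without WT vehicle replicate 2 and 0.00306, 0.00817 and 0.030 without Pear1-/- vehicle replicates 1, 2 and 3. The interaction of Ctsl (-0.05) ranged from -0.24 to 0.00773 with 1 library left out, the latter without WT vehicle replicate 1. With the 2 bleo groups alone Ctsl was called (adjusted p = 1.45e-07), and with the 2 groups labelled Pear1-/- alone so was the fall of Cst3 (adjusted p = 0.0351). Other calls that were lost concerned Ctsl and Ctsd, as given above. The replicate numbers did not pair the libraries, since 2 of 18 same-numbered pairs had a correlation above 0.1 (from -0.29 to 0.18 over 10454 genes). With a replicate block 9 members were called in WT bleo against WT vehicle, Ctsl being lost (adjusted p = 0.0532), 9 in each of the other bleo comparisons and the interaction, and 0 between the vehicle groups. The causes were not tested. Of all tested genes, 0 were called by edgeR with the vehicle groups alone or when any 1 vehicle library but WT vehicle replicate 2 was left out, where 2961 to 5876 had an unadjusted p under 0.05. Leaving out a library leaves its group with 2 samples. Shares and levels per kb depend on the gene length taken, as given above.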
